A study of Homo sapiens with 4 samples.

Results

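The genes described here are 32 enzymes, regulators and carriers of sterol and fatty acid synthesis, taken by symbol from the 20809 targets measured in 4 RNA libraries of the breast cancer cell line MDA-MB-468. The members were split by textbook function into a cholesterol branch of 16 genes and a fatty acid branch of 16 genes, and the question asked of them is whether both branches differed alike between drug-resistant and parental cells. MDA-MB-468 is an established line of basal-type, triple-negative breast cancer (TNBC), which lacks the estrogen and progesterone receptors and HER2 amplification. The comparison is between 2 groups of 2 libraries. The resistant subline (MDA-MB-468/R) had been selected over 6 months with stepwise doxorubicin (adriamycin) and cyclophosphamide (cytoxan), followed by docetaxel (taxotere). The parental cells (MDA-MB-468/WT) carry the genotype label WT and the treatment label none, although a shared protocol text names the same drugs for them. The labels name no allele or transgene that separates the groups. MDA-MB-468/R is a single selected subline, so the comparison is between 1 subline and its parent. The labels do not say that the 2 libraries of a group came from separate cultures, so the p-values rest on the spread between library pairs, and this may be technical. In bulk RNA, fewer cells that express a gene and less of its RNA per cell cannot be told apart.

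Cells make cholesterol and fatty acids from the same precursor, acetyl-CoA. Cholesterol is built through the mevalonate pathway, in which acetyl-CoA is condensed to isoprenoid units, joined to squalene, closed to a sterol ring and trimmed, whereas fatty acids are built by repeated addition of malonyl-CoA and are then elongated, desaturated and activated. Both routes are switched on by the sterol regulatory element-binding proteins (SREBPs), which are held in the endoplasmic reticulum by INSIG proteins while sterols are plentiful and are cut and sent to the nucleus when sterols run low. SREBP-2, encoded by SREBF2, mainly drives the cholesterol genes, and SREBP-1c, a product of SREBF1 that also answers to insulin and liver X receptors (LXR), mainly drives the fatty acid genes.

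RNA was measured with a targeted assay that amplifies 1 short amplicon per gene, so reads per 1000000 reads of a library (RPM) compare a gene between libraries and not 1 gene with another. From the size of 1 read in RPM, the libraries held an estimated 7003650 and 7328000 reads in MDA-MB-468/R and 6840250 and 7980250 reads in MDA-MB-468/WT, and a count of 3 reads, taken as the floor, equalled 0.376 to 0.439 RPM. Counting error alone is covered by such floors. Fold changes below are differences between group means of the deposited log2(RPM + 1) values, R minus WT, tested with limma over 12118 genes with at least 10 reads in at least 2 libraries, and a gene was called at a Benjamini-Hochberg adjusted p of at most 0.05. The 2 R libraries lay further apart than the 2 WT libraries for 69.7% of all genes tested and for 21 of the 28 members tested.

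The fatty acid branch held 3 of the 4 members that passed the test, all higher in MDA-MB-468/R, and the cholesterol branch held 1, which was lower. SCD, the desaturase that makes oleate from stearate, was 2.78-fold higher in mean RPM, SREBF1 1.99-fold higher and FASN, the fatty acid synthase, 1.74-fold higher. STARD4, a carrier that moves cholesterol between membranes, was the cholesterol branch member that fell. Among 13 fatty acid genes tested, 3 rose and 0 fell, and among 15 cholesterol genes tested, 0 rose and 1 fell. Over all genes tested, 5.36% rose and 10.6% fell, 16.0% in all, beside 14.3% of the members tested. The count of 0 higher calls in the cholesterol branch is from limma on all 4 libraries, and it did not hold in each fit without 1 library. Without R replicate 2, DHCR7 was called higher (0.39, limma adjusted p = 0.0324) and FDFT1 lower (-0.34, limma adjusted p = 0.0312), and without R replicate 1, FDPS was called lower (-0.48, limma adjusted p = 0.0269). At an unadjusted p of at most 0.05 in the fit on all libraries, SQLE and DHCR7 were higher and FDPS and STARD4 lower. ACLY, beside the 3 fatty acid genes called, was also higher at that level. Over all genes tested, 31.3% passed at that level, 1480 higher and 2310 lower of 12118. A model of random sampling with no replicate error called 53.4% of all genes. It called 3 cholesterol genes higher and 5 lower, and 6 fatty acid genes higher and 1 lower.

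**Figure D1:**
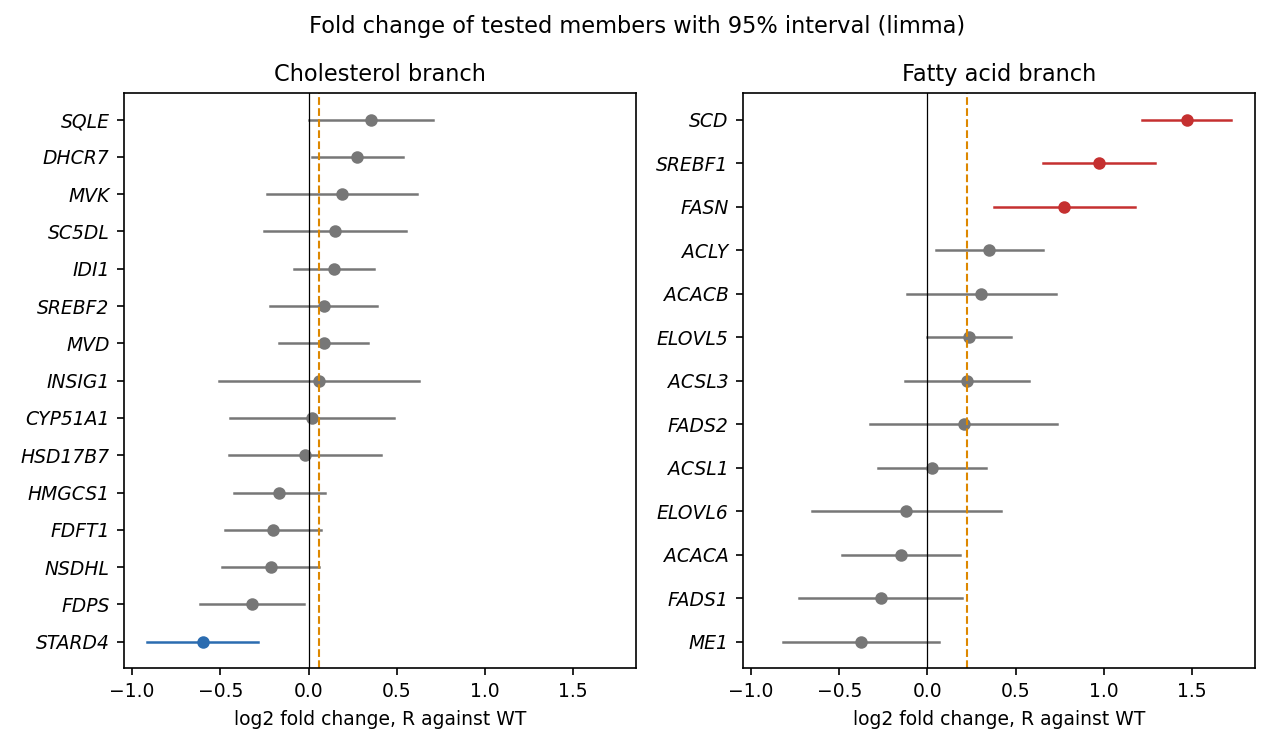
Log2 fold change of each of the 28 tested members, MDA-MB-468/R minus MDA-MB-468/WT (horizontal axis, log2 of RPM + 1), with bars for the 95% interval from limma, grouped by branch. Red marks genes called higher, blue genes called lower and grey genes that did not pass, and the dashed line is the branch median, 0.06 for cholesterol and 0.23 for fatty acid. SCD at 1.47 lies furthest to the right, and STARD4 at -0.60 furthest to the left.

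SREBF1, which encodes the SREBP-1 proteins that drive fatty acid synthesis genes, was measured at 65.7 and 76.2 RPM in the 2 R libraries and at 33.5 and 37.9 RPM in the 2 WT libraries. Both R libraries lay above both WT libraries. The value is per gene and does not separate the SREBP-1a and SREBP-1c transcripts. Mean RPM was 70.9 ± 7.39 in R and 35.7 ± 3.05 in WT (SD, n = 2 each), and the log2 fold change was 0.97 (SE 0.136, 95% interval 0.65 to 1.29, limma adjusted p = 0.00421). SREBF2, which encodes the SREBP that drives cholesterol genes, stood at 138 and 111 RPM in R and 117 and 117 RPM in WT. The WT pair fell between the 2 R libraries, so the groups overlapped. Its log2 fold change was 0.09 (SE 0.129, limma adjusted p = 0.704), with a 95% interval of -0.22 to 0.39. SREBF1 minus SREBF2 on the log2 scale was -1.06 and -0.54 in the R libraries and -1.77 and -1.60 in the WT libraries. This difference was thus higher in each R library than in either WT library. Its size within a library also depends on the amplicons and cannot be read as a ratio of the genes.

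INSIG1, the sterol-induced protein that retains SREBPs in the endoplasmic reticulum, was at 24.3 and 14.2 RPM in R and 17.0 and 18.7 RPM in WT. The highest and the lowest value both came from R libraries. Its log2 fold change of 0.06 (SE 0.242, limma adjusted p = 0.896) turned to -0.31 without R replicate 1. THRSP, a lipogenic target of thyroid hormone, and MLXIPL, the carbohydrate-responsive factor ChREBP, did not reach the level needed for the test. THRSP had 3 and 1 reads in R and 1 and 0 in WT, and MLXIPL 7 and 10 reads in R and 3 and 5 in WT.

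SCD introduces the double bond of oleate and palmitoleate. It was measured at 567 and 497 RPM in the 2 R libraries against 198 and 184 RPM in the 2 WT libraries, and the groups did not overlap. Mean RPM was 532 ± 49.6 in R and 191 ± 10.4 in WT (SD, n = 2 each). The log2 fold change of 1.47 (SE 0.108, 95% interval 1.22 to 1.72, limma adjusted p = 2.8e-04) ranked 66 of 12118 genes by log2 fold change, from the highest. Of the members, SCD was the only one past the 2.5-fold threshold stated in the study. Among all genes tested, 0.809% rose and 2.45% fell by that much with an adjusted p of at most 0.05, 3.26% in all. The other desaturases of the branch, FADS1 and FADS2, place double bonds in polyunsaturated chains. FADS1 was at 11.6 and 15.9 RPM in R and 15.3 and 17.8 RPM in WT. FADS2 was at 12.3 and 8.06 RPM in R and 9.06 and 8.0 RPM in WT. Both overlapped between groups and neither passed.

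FASN carries all the activities that build palmitate on 1 polypeptide. Its values were 483 and 334 RPM in R and 248 and 222 RPM in WT. The groups did not overlap, but the 2 R libraries were further apart than in the case of SCD. Mean RPM was 409 ± 105 in R and 235 ± 18.5 in WT (SD, n = 2 each), with a log2 fold change of 0.78 (SE 0.171, 95% interval 0.38 to 1.17, limma adjusted p = 0.0226). Without R replicate 1 the change was 0.51 and did not pass.

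The enzymes that feed FASN did not pass the test. ACLY, which splits citrate into cytosolic acetyl-CoA, was at 207 and 164 RPM in R and 145 and 144 RPM in WT. Both R libraries were higher, and the log2 fold change was 0.35 (SE 0.130, unadjusted p = 0.0290, limma adjusted p = 0.113). It was 0.185 without R replicate 1 and 0.515 without R replicate 2. ACACA and ACACB are the acetyl-CoA carboxylases that make malonyl-CoA. ACACA was at 22.1 and 24.5 RPM in R and 25.2 and 26.7 RPM in WT. ACACB was at 9.85 and 8.71 RPM in R and 7.46 and 7.17 RPM in WT. The isoforms separated the groups in opposite directions without passing, at -0.15 and 0.31 on the log2 scale. ACSS2, which makes acetyl-CoA from acetate, had 5 and 4 reads in R and 2 and 1 in WT and was not tested. ME1, the malic enzyme that supplies NADPH, was at 36.8 and 52.8 RPM in R and 63.0 and 52.4 RPM in WT, the lowest log2 fold change of the branch at -0.38 (SE 0.189, limma adjusted p = 0.224), with overlap.

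Of the elongases, ELOVL5 acts on polyunsaturated and ELOVL6 on saturated chains. ELOVL5 was at 409 and 366 RPM in R and 325 and 332 RPM in WT, higher in both R libraries at 0.24 on the log2 scale (SE 0.101, limma adjusted p = 0.161). Its change was 0.155 without R replicate 1 and 0.315 without R replicate 2. ELOVL6 was at 2.71 and 2.61 RPM in R and 3.5 and 2.51 RPM in WT, with overlap. ACSL1 and ACSL3 couple fatty acids to CoA, ACSL3 mainly at the endoplasmic reticulum and lipid droplets. ACSL1 was at 72.0 and 59.97 RPM in R and 65.7 and 63.4 RPM in WT. ACSL3 was at 84.6 and 113 RPM in R and 81.1 and 85.8 RPM in WT. In each, 1 R library lay within the range of the WT libraries or below it. The 10 fatty acid genes that did not pass had log2 fold changes of -0.38 to 0.35, and their 95% intervals spanned -0.82 to 0.74, which leaves out a 2-fold difference for each of the 10.

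**Figure D2:**
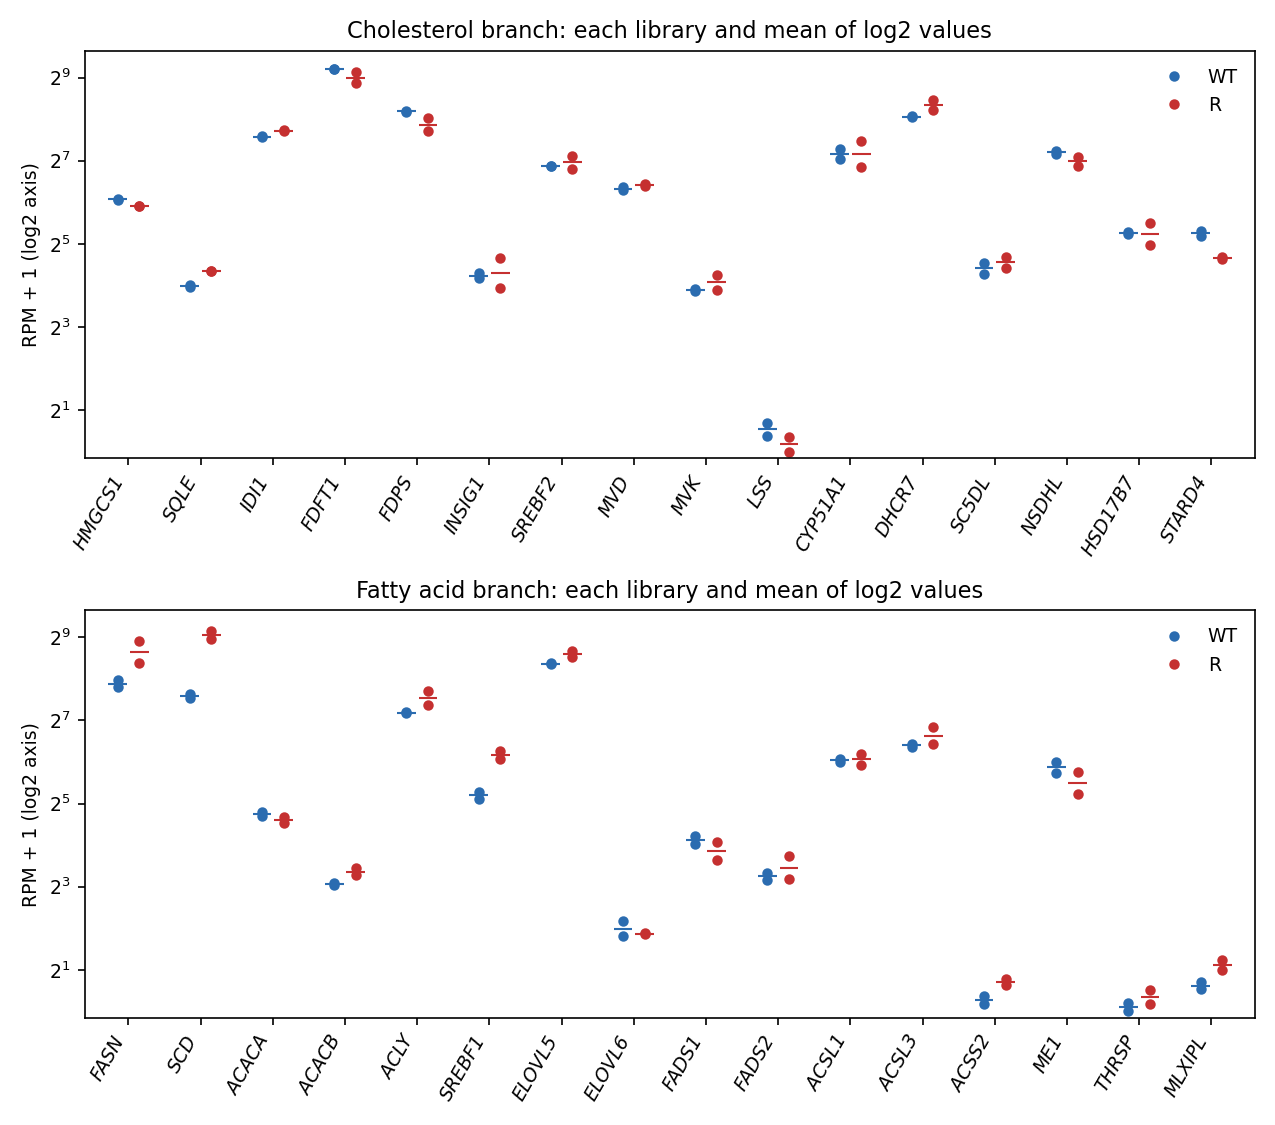
Level of each of the 32 members in each library (log2-scaled axis, RPM + 1), MDA-MB-468/WT in blue and MDA-MB-468/R in red, with bars at the mean of the log2 values of each group (n = 2 each). SCD, SREBF1 and FASN show both red points above both blue points, whereas most cholesterol genes show red and blue points close together. Positions are for comparing groups within a gene, since each gene has its own amplicon.

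In the cholesterol branch the early, mevalonate steps moved little. HMGCS1, which makes HMG-CoA, was at 59.1 and 58.7 RPM in R and 65.7 and 66.6 RPM in WT. Both R libraries were lower, at -0.17 on the log2 scale (SE 0.111, limma adjusted p = 0.358). MVK phosphorylates mevalonate and was at 13.8 and 18.2 RPM in R and 14 and 13.5 RPM in WT. MVD decarboxylates it to an isoprenoid unit and was at 83.4 and 85.2 RPM in R and 81.7 and 77.2 RPM in WT. MVD separated the groups with R higher and MVK did not, and neither passed.

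The isoprenoid and squalene steps were mixed in direction. IDI1, the isomerase that balances both isoprenoid units, was at 213 and 208 RPM in R and 188 and 193 RPM in WT. FDPS, which joins isoprenoid units to farnesyl diphosphate and has processed pseudogenes that can share reads, was at 260 and 208 RPM in R and 293 and 289 RPM in WT. IDI1 was thus higher and FDPS lower in both R libraries, at 0.15 (limma adjusted p = 0.350) and -0.32 (limma adjusted p = 0.129) on the log2 scale. FDFT1, squalene synthase, commits farnesyl units to sterols and was at 464 and 563 RPM in R and 587 and 587 RPM in WT. SQLE, the oxygenase that adds oxygen to squalene and is a rate-controlling step, was at 19.4 and 19.3 RPM in R and 14.7 and 15.1 RPM in WT. Both R libraries were higher for SQLE and lower for FDFT1. SQLE had the highest log2 fold change of the branch, 0.36 (SE 0.150, unadjusted p = 0.0477, limma adjusted p = 0.155). LSS, the cyclase that closes the sterol ring, had 2 and 0 reads in R and 2 and 5 in WT and was not tested.

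None of the 5 genes that trim the sterol ring passed, although DHCR7 was higher at an unadjusted p of at most 0.05. DHCR7, which catalyses the last step to cholesterol, was at 349 and 297 RPM in R and 268 and 264 RPM in WT, higher in both R libraries at 0.28 on the log2 scale (SE 0.110, limma adjusted p = 0.138). NSDHL, a C4 demethylation enzyme, was at 116 and 136 RPM in R and 142 and 150 RPM in WT. It separated the groups with R lower, at -0.22 on the log2 scale (SE 0.117, limma adjusted p = 0.259). CYP51A1, the lanosterol demethylase, was at 115 and 178 RPM in R and 153 and 130 RPM in WT. SC5DL, the sterol desaturase, was at 24.8 and 20.6 RPM in R and 22.4 and 18.3 RPM in WT. HSD17B7, a ketosteroid reductase with a pseudogene of similar sequence, was at 30.6 and 44.3 RPM in R and 36.5 and 38.1 RPM in WT. These last genes overlapped between groups, and for CYP51A1 and HSD17B7 the R libraries lay on either side of the WT pair.

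STARD4 was at 24.6 and 23.9 RPM in R and 38.9 and 35.8 RPM in WT, with both R libraries below both WT libraries. Mean RPM was 24.3 ± 0.496 in R and 37.4 ± 2.25 in WT (SD, n = 2 each), and the log2 fold change was -0.60 (SE 0.134, 95% interval -0.91 to -0.29, limma adjusted p = 0.0239). STARD4 transports sterol and makes none. Of the 12 tested enzymes of this branch, 0 were called in either direction, beside 16.0% of all genes tested. At an unadjusted p of at most 0.05, 3 of the 12 passed, SQLE and DHCR7 higher and FDPS lower, beside 31.3% of all genes tested. Other genes of sterol synthesis are given further below. The 14 cholesterol genes that did not pass had log2 fold changes of -0.32 to 0.36, and their 95% intervals spanned -0.61 to 0.71, which leaves out a 2-fold difference for each of the 14.

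The 4 calls differ in how far they rest on single libraries. In fits with 1 library left out, the lone library is assumed to vary like the other group. SCD ranged from 1.38 to 1.57 on the log2 scale and passed in 2 of 4 such fits, SREBF1 ranged from 0.87 to 1.08 and passed in 2, FASN ranged from 0.51 to 1.04 and passed in 1, and STARD4 ranged from -0.66 to -0.54 and passed in 0. None of the 28 members passed without WT replicate 1 or without WT replicate 2, where 0.52% and 0.47% of all genes passed. The highest adjusted p in these fits was 0.0659 for SCD, 0.185 for SREBF1, 0.352 for FASN and 0.386 for STARD4. Both R libraries lay above both WT libraries for 10 of the 28 members and below them for 6. Among all genes tested, 26.1% separated with R higher and 32.2% with R lower, 58.3% in all. By branch, 6 of 13 fatty acid genes separated with R higher and 1 with R lower, and 4 of 15 cholesterol genes separated with R higher and 5 with R lower.

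Set side by side, the branch medians of the log2 fold change were 0.23 for the fatty acid genes and 0.06 for the cholesterol genes, beside -0.03 over all genes tested. The log2 fold change was above 0 for 9 of 13 and 9 of 15 genes. The mean log2 value over the 13 fatty acid genes was 5.82 and 5.78 in the R libraries and 5.54 and 5.49 in the WT libraries. The mean over the 15 cholesterol genes was 6.23 and 6.24 in R and 6.26 and 6.23 in WT. Over all genes tested it was 4.73 and 4.69 in R and 4.8 and 4.79 in WT. In the deposited values, the fatty acid mean thus separated the groups with R higher and the cholesterol mean did not. Relative to the mean over all genes tested, which was lower in R, the cholesterol mean also separated with R higher. The cholesterol mean minus the mean over all genes was 1.501 and 1.548 in R and 1.460 and 1.443 in WT. For the fatty acid mean this difference was 1.084 and 1.084 in R and 0.736 and 0.703 in WT. Without SCD, SREBF1 and FASN, the mean over the other 10 fatty acid genes was 5.15 and 5.15 in R and 5.13 and 5.08 in WT, and the median of their log2 fold changes was 0.12. In these values the difference between the branch means lay mainly in the 3 genes called. These were left out because they had passed, so a smaller remaining difference is built into this description. SCD and FASN made up 52.9% and 48.2% of the summed RPM of the 16 fatty acid members in R, and 36.5% and 34.3% in WT. Since each gene has its own amplicon, these shares can be compared between libraries only. No test was run on a branch mean, since the members were chosen with results known.

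**Figure D3:**
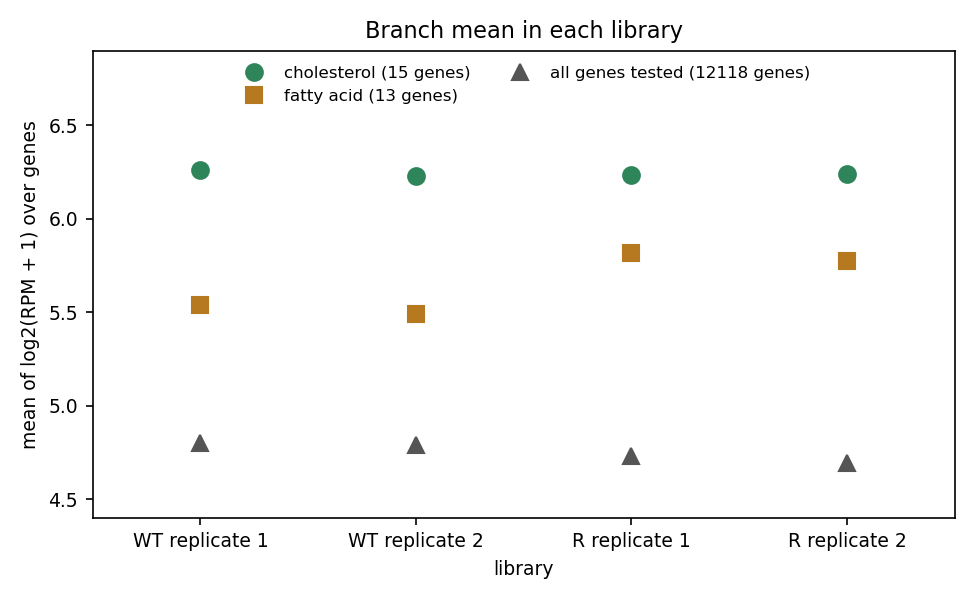
Mean of the log2(RPM + 1) values (vertical axis) over the 15 tested cholesterol genes, the 13 tested fatty acid genes and all 12118 genes tested, in each of the 4 libraries (horizontal axis). Green circles stand for cholesterol, ochre squares for fatty acid and grey triangles for all genes. The fatty acid means of the R libraries, 5.82 and 5.78, lie above those of the WT libraries, 5.54 and 5.49, while the cholesterol means lie between 6.23 and 6.26 in all 4.

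Short elements were searched in the promoters of both branches, and no test of a branch difference was run. The RefSeq promoter table used (GRCh38.p14, from 250 bases before to 50 after the start) was matched by 29 of the 32 members, all but FASN, SQLE and FDFT1, and 10 members had several starts, of which the first listed was read. The CCAAT box, a site of the factor NF-Y that works beside SREBPs, was searched as CCAAT on both strands. It was found in 12 of 14 cholesterol promoters (85.7%) and 6 of 15 fatty acid promoters (40.0%), beside 37.5% of the promoters of genes tested. If any listed start was counted, it was found in 13 and 10 promoters, beside 43.7%. The sterol regulatory element, searched as TCACNCCAC on both strands, was found in 1 of 14 and 0 of 15, beside 1.10% of tested genes. With any listed start counted, it was found in 1 and 1, beside 1.43%. The E-box CACGTG, which reads the same on both strands and is also bound by SREBPs, was found in 3 and 1, beside 10.2%. From any start it was also found in 3 and 1, beside 12.4%. The GC box GGGCGG, searched on both strands, was found in 13 and 11, beside 70.4%, and from any start in 13 and 13, beside 76.9%. A match is a description of letters and not a site in use. In the windows printed here the capitals do not overlap each other, while matches to the GC box can share bases, as in SREBF2.

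The windows of the SREBP genes and of called genes are shown, with MVD as an example of a cholesterol enzyme with several CCAAT boxes. Capitals mark a sterol regulatory element or a CCAAT box (as CCAAT or, on the other strand, ATTGG). SREBF2 lies at chr22:41832855-41833154 on the plus strand and holds both. SREBF1 lies at chr17:17836937-17837236 on the minus strand and holds neither. SCD lies at chr10:100346983-100347282 on the plus strand with 2 CCAAT boxes, STARD4 at chr5:111512486-111512785 on the minus strand with 2, and MVD at chr16:88663042-88663341 on the minus strand with 3.
SREBF2: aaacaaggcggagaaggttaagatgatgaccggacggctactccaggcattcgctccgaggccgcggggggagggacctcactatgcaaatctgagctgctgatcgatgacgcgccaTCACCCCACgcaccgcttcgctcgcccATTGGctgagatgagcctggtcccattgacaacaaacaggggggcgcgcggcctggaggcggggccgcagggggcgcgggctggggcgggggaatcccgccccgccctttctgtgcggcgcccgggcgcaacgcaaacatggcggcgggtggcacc
SREBF1: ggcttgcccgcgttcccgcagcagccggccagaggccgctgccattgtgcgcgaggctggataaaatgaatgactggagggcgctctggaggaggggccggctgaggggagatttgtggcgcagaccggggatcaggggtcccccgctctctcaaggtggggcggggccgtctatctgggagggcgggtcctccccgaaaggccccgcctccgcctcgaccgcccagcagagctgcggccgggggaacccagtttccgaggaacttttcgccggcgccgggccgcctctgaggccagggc
SCD: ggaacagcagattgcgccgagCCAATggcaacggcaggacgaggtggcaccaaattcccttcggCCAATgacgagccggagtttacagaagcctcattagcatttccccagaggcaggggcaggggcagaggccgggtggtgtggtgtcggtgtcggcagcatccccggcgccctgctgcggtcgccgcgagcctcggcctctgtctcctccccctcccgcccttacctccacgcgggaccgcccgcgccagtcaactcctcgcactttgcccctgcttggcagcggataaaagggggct
STARD4: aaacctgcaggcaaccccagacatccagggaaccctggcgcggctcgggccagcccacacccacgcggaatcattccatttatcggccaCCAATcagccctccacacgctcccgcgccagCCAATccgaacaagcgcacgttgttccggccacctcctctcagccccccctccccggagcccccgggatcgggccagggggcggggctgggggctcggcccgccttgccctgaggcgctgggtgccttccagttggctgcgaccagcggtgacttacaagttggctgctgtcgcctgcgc
MVD: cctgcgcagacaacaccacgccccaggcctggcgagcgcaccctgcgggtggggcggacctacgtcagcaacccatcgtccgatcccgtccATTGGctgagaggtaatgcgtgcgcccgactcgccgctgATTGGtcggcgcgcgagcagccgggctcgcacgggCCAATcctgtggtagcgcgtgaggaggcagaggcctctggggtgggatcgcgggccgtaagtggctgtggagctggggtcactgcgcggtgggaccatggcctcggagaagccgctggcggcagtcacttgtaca

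Among the windows printed, SREBF2 with 1 CCAAT box and MVD with 3 each had a log2 fold change of 0.09 that did not pass. SCD and STARD4, which hold 2 each, rose and fell. A relation between these boxes and the changes was not tested. SREBF1, which rose, holds no CCAAT box in its window.

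Other genes of the same pathways were read from lists of textbook members. In SREBP processing, 8 genes were tested, with RNF139 (0.86, limma adjusted p = 0.00906), an endoplasmic reticulum ubiquitin ligase, higher and MBTPS2 (-0.85, limma adjusted p = 0.0149), the protease that makes the second cut of SREBPs, lower. In the rest of sterol synthesis, 10 were tested, with EBP (-0.56, limma adjusted p = 0.0107), a sterol isomerase, lower. Among 13 genes of cholesterol uptake and handling, SOAT1 (-0.55, limma adjusted p = 0.0406), which esterifies cholesterol, was lower. Of 6 genes of LXR and sterol efflux, LPCAT3 (0.72, limma adjusted p = 0.0129), which puts polyunsaturated chains into phospholipids, was higher and 0 were lower. Their median log2 fold change was 0.50, beside -0.03 over all genes tested.

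The remaining lipid lists moved in both directions. A further 20 fatty acid synthesis genes were tested, of which 0 rose and 4 fell. These were ACSL4 (-1.43, limma adjusted p = 5.09e-04), which activates arachidonate, FADS3 (-0.94), HSD17B12 (-0.45), the ketoacyl reductase of elongation, and PTPLA (-1.54), the dehydratase of the same cycle, with limma adjusted p of 0.00732, 0.0247 and 0.00528 in the last 3. ACSL4 fell from 95.3 and 88.9 RPM in WT to 35.5 and 31.7 RPM in R, without overlap, whereas its relatives ACSL1 and ACSL3 did not pass. PTPLA was low throughout, with 35 and 32 reads in WT and 6 and 7 in R. Among 15 genes of glycerolipid synthesis, DGAT1 (1.22, limma adjusted p = 0.00361), which makes triglyceride, and LPIN1 (0.89, limma adjusted p = 0.0189), a phosphatidate phosphatase, were higher. LPIN3 (-1.07, limma adjusted p = 0.0345), a relative of LPIN1, and AGPAT3 (-0.45, limma adjusted p = 0.0428), an acyltransferase, were lower. Of 20 genes of fatty acid oxidation, ECI1 (0.55, limma adjusted p = 0.0244), an isomerase for unsaturated chains, was higher and 0 were lower. In these lists 16 of 92 tested genes were called in all (17.4%), 7 higher and 9 lower, a share near the 16.0% over all genes tested. No list test was run, and these counts describe the lists only.

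**Figure D4:**
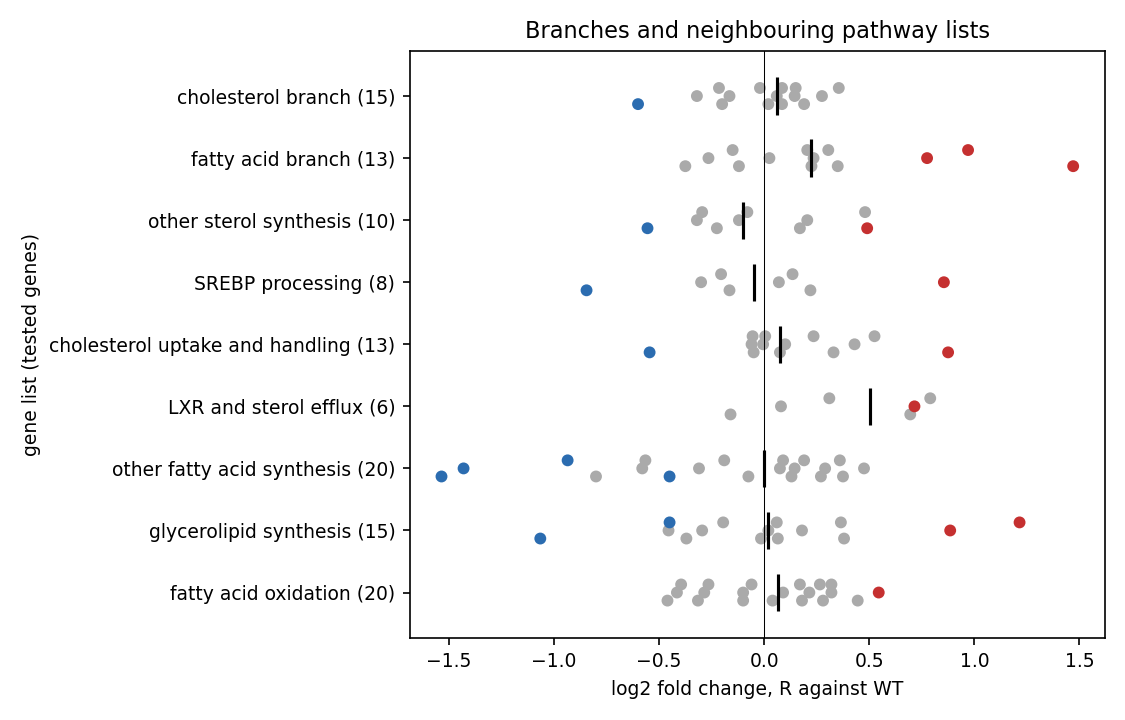
Log2 fold change (MDA-MB-468/R minus MDA-MB-468/WT, log2 of RPM + 1) of each tested gene in the 2 branches and the 7 other pathway lists, with a black bar at the median of each list. Red marks genes called higher, blue genes called lower and grey genes that did not pass. The medians run from -0.10 in the rest of sterol synthesis to 0.50 in LXR and sterol efflux.

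Several of these genes lie among neighbours that moved the same way. With the 20 nearest tested genes on the chromosome (10 on each side, RefSeq order on GRCh38.p14, with 13 for IDI1), SQLE on chromosome 8 had neighbours with a median log2 fold change of 0.84, all 20 above 0 and 14 called higher. DGAT1 and RNF139, on the same chromosome, had neighbour medians of 0.78 and 0.68, with 15 and 12 called higher. On chromosome 8 as a whole, the median of genes other than SQLE was 0.135, with 85 of 381 called higher and 28 lower. EBP and MBTPS2 on the X chromosome had neighbour medians of -0.60 and -0.55, with 10 and 9 called lower. ACSL4 on the same chromosome had one of -0.32, with 9 called lower. The X chromosome was low as a whole, with a median of -0.445 over genes other than EBP. Of these 378 genes, 8 were called higher and 137 lower. SOAT1 had a median of -0.41, with 6 called lower. Over all genes tested, 5.36% were called higher and 10.6% lower. Of the other genes named from the lists, LPCAT3 and FADS3 had neighbour medians of -0.23 and 0.125, on the opposite side of 0 from their own changes. LPIN1, PTPLA, LPIN3, HSD17B12, AGPAT3 and ECI1 had medians of 0.075, -0.10, -0.18, -0.24, -0.36 and 0.215, on the same side as their own changes. For AGPAT3 on chromosome 21, 7 of 20 neighbours were called lower. That chromosome had a median of -0.37, with 34 of 110 other tested genes called lower and 3 higher. Of the members that did not pass, those with the neighbour medians furthest from 0, besides SQLE, are named here. FDFT1 on chromosome 8 and ME1 had neighbour medians of -0.30 and -0.33 on the same side of 0 as their own changes. For IDI1, HMGCS1 and ACLY the neighbour medians of -0.35, 0.26 and -0.20 were on the opposite side. Of the remaining members that did not pass, more lay on the same side than on the opposite side. Among the called members, the neighbour median was -0.05 for SCD, 0.02 for SREBF1, 0.16 for FASN and 0.09 for STARD4. It was on the same side of 0 as the gene's own change for SREBF1 and FASN, and on the opposite side for SCD and STARD4. For FASN, 14 of 20 neighbours were above 0. Whether the number of gene copies moved with these stretches or chromosomes was not tested.

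**Figure D5:**
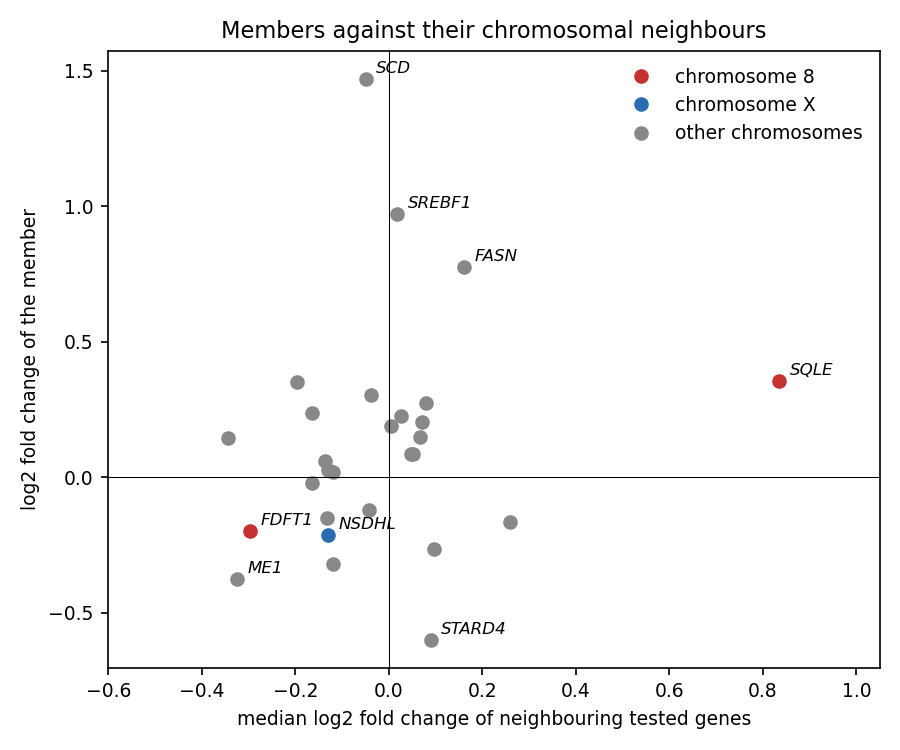
Log2 fold change of each tested member, MDA-MB-468/R minus MDA-MB-468/WT (vertical axis), against the median log2 fold change of its nearest tested genes on the chromosome (horizontal axis, 20 genes, and 13 for IDI1), with red for chromosome 8, blue for the X chromosome and grey for the others. SCD, SREBF1 and FASN sit high with neighbour medians of -0.05 to 0.16, while SQLE lies alone to the right at 0.84.

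Markers of other cells were near 0 where they define a lipid-making tissue. Of 9 adipocyte markers, 5 had 0 reads in all 4 libraries, namely ADIPOQ, FABP4, LPL, PLIN4 and CIDEA, and the summed level was 19.1 and 24.5 RPM in R and 34.4 and 33.3 RPM in WT. Nearly all of it was PPARG, the lipogenic nuclear receptor, which was lower in R at -0.64 on the log2 scale (limma adjusted p = 0.0349). The summed level of 6 hepatocyte markers was at most 0.50 RPM in each library. The summed level of 8 epithelial and line markers was 10793 and 11009 RPM in R and 12934 and 12971 RPM in WT, with KRT5 (-0.77) and KRT17 (-1.22), keratins of basal cells, called lower. The part of this shift in the lipid genes was not tested.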

How the data were processed

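Total RNA of MDA-MB-468 cells, in 2 R libraries and 2 WT libraries, was measured with the Ion AmpliSeq transcriptome kit. The deposited values are log2(RPM + 1) per target, made by the authors from reads mapped to the targeted transcripts with the Torrent aligner, with a pseudocount of 1. The submitters' processing notes also name Bowtie2, bedtools and edgeR, and the genome build is not given in the sources used here. RPM were recovered from the log2 values, and reads from the RPM steps, with 100% of values up to 20 reads whole within 0.1.

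limma 3.58.1 (R 4.3.3) was fitted to the log2 values of 12118 genes with at least 10 reads in at least 2 libraries, R against WT, with a mean trend, and p-values were adjusted (Benjamini-Hochberg) over all of them. The study's own method models no replicate spread, so limma was used in its place with calls at 0.05 on the adjusted p, and a fold of 2.5 where named. The script was tested on simulated data. Groups came from the sample titles. The members and lists were chosen with earlier results of these data known, SCD, SREBF1 and FASN among them. Full values were given to called members, to SREBF1, SREBF2, INSIG1, FASN, HMGCS1 and SQLE, and to members without overlap and a change of at least 0.5, and called genes of the other lists were named, except for 2 that are counted but not reported here. Alternatives were another scaling (RLE), no filter, pseudocounts of 4 and 0.5 RPM, limma-voom on recovered reads, a random sampling model like DEGSeq, a replicate block, unadjusted p and leaving out each library. Promoters and gene order came from RefSeq, GRCh38.p14.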

Additional observations from a re-analysis of the deposited data

How the results depend on the processing

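Calls kept the same 4 members under RLE scaling, either pseudocount, limma-voom and the replicate block (1 cholesterol and 3 fatty acid genes). With the block, 13 genes of the other lists were called in place of 16. Same-numbered libraries had a correlation of deviations of 0.00868. This is 1 value over all genes tested, so it cannot show whether same-numbered libraries were handled together. Over all genes the block gave 497 higher and 1114 lower. The count of cholesterol genes called was 0 with no filter, 8 under random sampling and 4 at unadjusted p, and 0 to 2 without 1 library. The fatty acid count was 0 with no filter and 7 under random sampling, and 0 to 5 without 1 library. The count in the other lists was 1 with no filter, 55 under random sampling and 34 at unadjusted p, and 0 to 16 without 1 library. With no filter, 20809 targets were tested in place of 12118, and 1.32% of them were called. Over all genes tested, 53.4% were called under random sampling and 31.3% at unadjusted p, so the counts of members and list genes stand beside these shares. The cholesterol median was 0.093 under RLE scaling, which moves the median of all genes from -0.03 to 0.00, and 0.0895 under random sampling, and 0.005 to 0.085 without 1 library. The fatty acid median was 0.155 to 0.315 and the difference between branches 0.135 to 0.31 without 1 library, above 0 in each fit. Among members that did not pass, signs reversed for INSIG1 (-0.305 to 0.425 over the fits without 1 library, -0.005 without WT replicate 1), SREBF2 (-0.07 to 0.24), CYP51A1 (-0.29 to 0.33, -0.10 without WT replicate 2), HSD17B7 (-0.28 to 0.24, 0.01 without WT replicate 2, 0.0141 under RLE scaling and 0.00611 under random sampling), ELOVL6 (-0.30 to 0.06), FADS2 (-0.07 to 0.48) and ACSL1 (-0.105 to 0.155). The cause was not tested. LSS, ACSS2, THRSP and MLXIPL were too low to test.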
